A study of Rattus norvegicus with 113 samples.

Results

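The comparison described here is cortex of rats with traumatic brain injury (TBI) against cortex of sham-injured rats, both taken 24 hours after the procedure. Its members were chosen by sample title and are 4 TBI arrays and 4 sham arrays, and the 4 naive cortex arrays of the same interval were kept in the model, so that 12 of the 113 arrays of the series were used for it. All animals were Sprague-Dawley rats, adult males per the study's methods, with no transgene or drug in any group. TBI rats were anesthetized, had the skull opened and received a fluid pulse onto the brain surface, which the labels call moderate and the methods call severe. Sham rats went through the same anesthesia and surgery without the pulse, and naive rats had neither anesthesia nor handling. The cortex piece lay beneath the injury site and was cut out by hand, and each array is a separate rat per the methods. Poly(A) RNA was amplified and hybridised to Agilent 1-colour arrays. The title of sham replicate 4 gives its group, but its record carries 2 animal numbers.

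As background, fluid percussion deforms the cortex and tears small vessels. Within the first day, resident microglia and astrocytes take on a reactive state, chemokines draw neutrophils and then monocytes from the blood, and stressed cells raise heat shock proteins, which refold damaged proteins, and heme oxygenase, which breaks down heme from lysed blood. Sham surgery opens the skull as well, so it can start a smaller version of the same responses under the opening, and naive rats show the tissue without any of them. The tissue is bulk cortex, where fewer cells of a type and less RNA per cell cannot be told apart.

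The labelled tissue was set against its markers. All 5 neuron markers and the cortex markers Tbr1, Rorb, Cux2 and Lamp5 were well above background on all 12 arrays, as were the 4 oligodendrocyte and 4 astrocyte markers. The 3 hippocampus and 4 striatum markers were above background there too, so these markers do not tell cortex from those regions. Between 52.1% and 60.9% of probes were well above background per array, with 52.1 to 59.5% in naive, 53.6 to 56.3% in sham and 59.7 to 60.9% in TBI. Pearson correlations across probes, which are not independent, were 0.969 to 0.986 within sham, 0.971 to 0.987 within TBI and 0.951 to 0.988 between sham and TBI. The naive and sham arrays were all on 1 slide and the TBI arrays on another slide scanned the same day, so slide and injury cannot be told apart in any TBI comparison below, whereas sham and naive share a slide.

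A level below is the log2 processed signal of the probe minus the median of its array, the scaling that the methods name, and each difference is given also after subtracting the array's 75th percentile. These 2 scalings did not give the same picture. The 75th percentile lay 3.54 ± 0.05 (SD, n = 4) log2 units above the median in sham, 3.68 ± 0.04 (SD, n = 4) in TBI and 3.72 ± 0.05 (SD, n = 4) in naive arrays. The sham range of 3.48 to 3.59 did not overlap the TBI range of 3.65 to 3.74 or the naive range of 3.68 to 3.78. The gap was larger in TBI than in sham by 0.143 (exact permutation test, two-sided p = 0.0286, the smallest that 4 against 4 can give) and smaller in sham than in naive by 0.182 (sham minus naive −0.182, exact permutation p = 0.0286). TBI and naive differed by −0.0392 (exact permutation p = 0.257). Every TBI-minus-sham difference is therefore 0.143 lower under the 75th percentile, and every sham-minus-naive difference 0.182 higher.

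The dimmest probes differed more between TBI and sham than the bright ones. The 13620 probes that were above background on none of the 12 arrays had a median TBI-minus-sham difference of −0.91 under the median and −1.05 under the 75th percentile. The 22305 probes above background on all 12 arrays had medians of 0.11 and −0.03. Probes below background therefore lay lower on the TBI slide under either scaling, and they do not enter the tests. To be tested, a probe had to be well above background on all arrays of either group of the contrast.

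**Figure D1:**
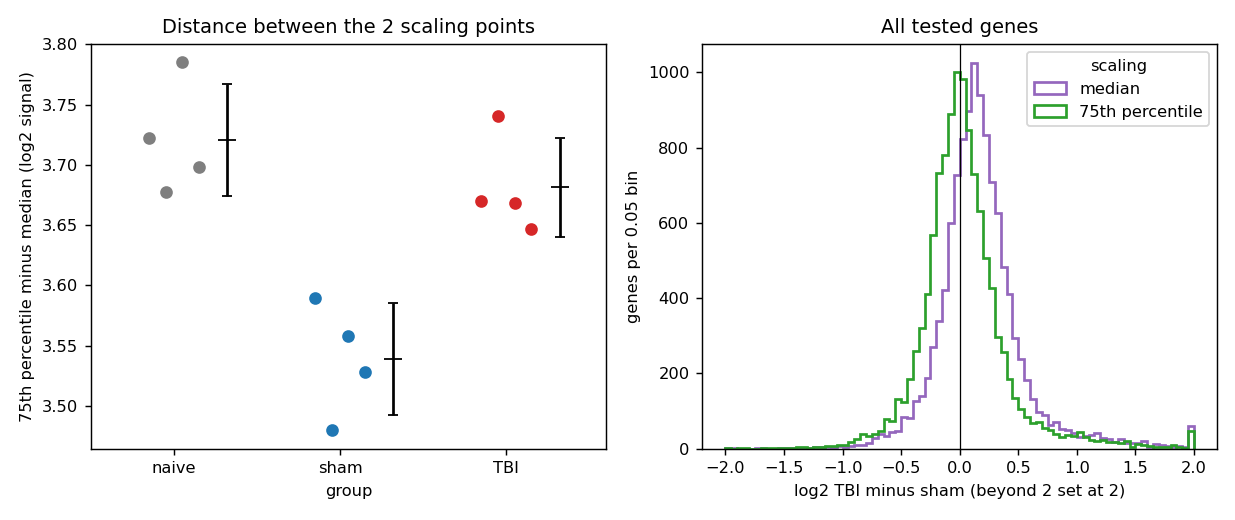
Left, the distance from array median to 75th percentile in log2 signal for the 4 naive, 4 sham and 4 TBI arrays (points), with mean and SD (bars), where sham lies at 3.48 to 3.59 and TBI at 3.65 to 3.74. Right, the number of tested genes by log2 TBI minus sham under each scaling, with values beyond 2 set at 2, where the whole distribution sits 0.143 further right under the median.

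Of 25862 probes tested in TBI against sham, 56 passed a Benjamini-Hochberg adjusted p of 0.05 in limma under the median (55 higher in TBI, which is 0.213% of the probes, and 1 lower), and 5384 had an unadjusted p under 0.05. Under the 75th percentile 1 probe passed, which was higher in TBI by 1.50 (adjusted p = 0.0298) and has no gene name in the RefSeq table, and 3932 had an unadjusted p under 0.05. At the thresholds the study used, a fold change of at least 1.4 with an unadjusted p under 0.05, 2341 probes were higher (9.05%) and 329 lower (1.27%) under the median, a split of 87.7% higher. Under the 75th percentile the same thresholds gave 1162 higher (4.49%) and 918 lower (3.55%), a split of 55.9% higher. The size of the majority on the higher side thus depended on the scaling, and the median difference over all tested probes was 0.12 under the median and −0.02 under the 75th percentile. The study also removed genes with a replicate not above background and genes whose replicates lay too far apart. Those filters were not applied here, so counts at its thresholds, here and below, are not the study's own.

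To keep to genes that did not hang on that choice, genes were counted where they met the study's thresholds under both scalings, by the brightest tested probe of each of 11740 named genes. There were 643 genes higher in TBI (5.48%) and 120 lower (1.02%). Among them, the 4 TBI arrays lay wholly on 1 side of the 4 sham arrays under both scalings for 161 higher genes (1.37%) and 21 lower genes (0.179%). The gene group counts below use these thresholds, which carry no correction for the number of genes. A gene that is high in TBI alone could be tested through TBI, and not against naive in sham, so a list's counts and median cover its tested genes and not all its members, and fewer of them could be tested for sham against naive. The word "called" below means an adjusted p under 0.05 with the median scaling unless the other is named.

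The naive arrays placed these genes. Of the 643 higher genes, 422 were also called higher in TBI than in naive cortex (420 under the 75th percentile), against 7.49% of all genes tested in that direction (10.3% lower). Of the 643, 8 were called higher in sham than in naive and 49 lower, where over all genes tested 0.634% were higher and 19.5% lower. Not all of the 643 could be tested for sham against naive, and they were chosen with sham below TBI, which bears on these counts. Sham against naive was itself strongly affected by the scaling, with 225 probes called higher and 4359 lower under the median but 164 higher and 253 lower under the 75th percentile. TBI against naive gave 1653 higher and 2878 lower under the median and 1823 and 2356 under the 75th percentile. TBI against sham and TBI against naive share the TBI arrays, and TBI against sham and sham against naive share the sham arrays, so these counts are not independent of each other.

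The sham rats were not alike in these genes. The SD over the 4 sham arrays had a median of 0.492 log2 units in the 643 genes against 0.196 over all genes, and the SD over the TBI arrays 0.454 against 0.240, while the naive SD was 0.240 against 0.181. Sham replicate 4 was the highest sham array in 328 of the 643 and sham replicate 2 in 235, and sham replicate 1 was the lowest in 380 and sham replicate 3 in 191. Relative to the naive mean, the median level of the 643 genes was −0.33, 0.41, −0.18 and 0.43 in sham replicates 1 to 4. In TBI replicates 1 to 4 it was 1.41, 0.92, 0.67 and 1.41, and TBI replicate 3 was the lowest TBI array in 456 genes. Sham replicates 2 and 4 and TBI replicates 2 and 3 were thus the closest to each other. That TBI lay above sham in these genes was fixed by how they were chosen.

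**Figure D2:**
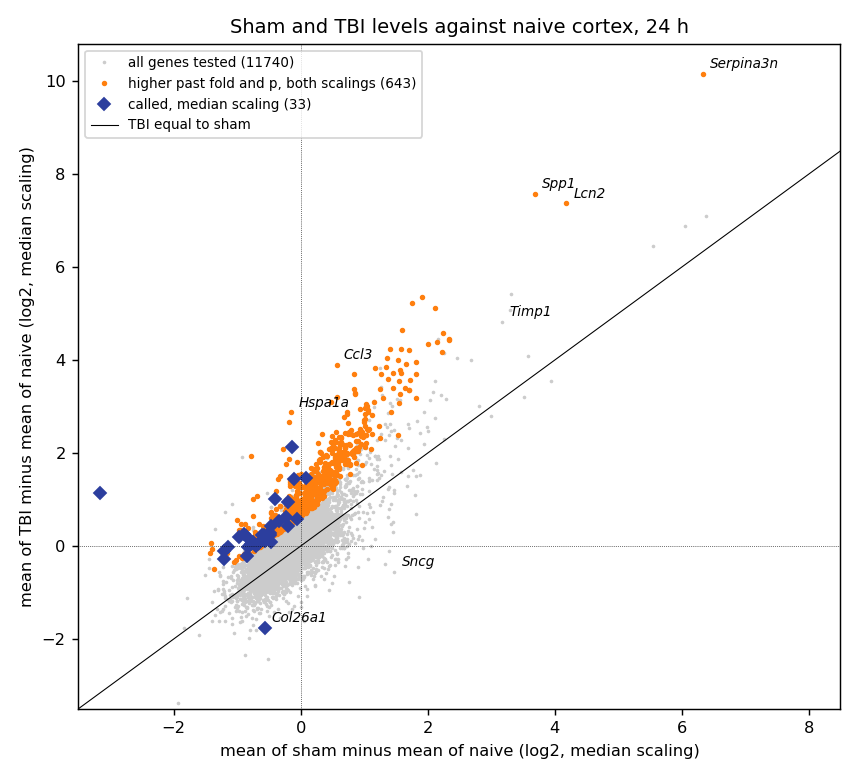
Each of the 11740 genes by its mean in sham (x axis) and in TBI (y axis), both as log2 difference from the naive mean under the median scaling, with the line of equal levels in sham and TBI. The 643 genes higher under both scalings (orange) lie above the line, many of them also right of 0, while most called genes (blue diamonds) sit left of 0 on the x axis and near 0 on the y axis.

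None of the gene lists described below held a gene called in TBI against sham. Of the 56 called probes, 39 had a gene name and 33 genes were called by their brightest probe, with adjusted p from 0.0122 to 0.0461 and, for the 55 higher probes, differences of 0.56 to 4.31 (median 0.85). Their sham-minus-naive median was −0.57 and their TBI-minus-naive median 0.24. For 31 of the 55, sham was called lower than naive, and for 17 TBI was called higher than naive. All 56 showed no overlap of TBI and sham under both scalings, and 53 met the study's thresholds under the 75th percentile too.

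In most called genes, sham was the group that stood apart under the median. Sf1, the splicing factor that binds the branch point of introns, had levels of 4.59, 4.51, 5.06 and 4.86 in naive, 3.90, 3.88, 3.86 and 3.96 in sham and 4.85, 4.82, 5.04 and 5.16 in TBI. All 4 sham arrays thus lay below every other array, and TBI and naive overlapped. Sf1 rose in TBI over sham by 1.07 ± 0.13 (SE, adjusted p = 0.0317 under the median and 0.102 under the 75th percentile), fell by 0.85 in sham from naive (sham minus naive −0.85, adjusted p = 0.00691, and 0.0411 under the 75th percentile) and differed by 0.21 between TBI and naive (adjusted p = 0.281). A dimmer probe of Sf1 gave 0.39 for TBI against sham. Hnrnpm, an RNA-binding protein of the splicing machinery, had levels of 6.46, 6.36, 6.62 and 6.53 in naive, 5.94, 6.01, 5.94 and 6.09 in sham and 6.81, 6.61, 6.62 and 6.90 in TBI. It rose over sham by 0.74 ± 0.11 (adjusted p = 0.038, and 0.161 under the 75th percentile), with 0.43 for its other probe.

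Further called genes with this order were Lsm8, a component of the U6 small nuclear ribonucleoprotein (0.81 over sham, −0.57 for sham minus naive), Sf3a2, a subunit of the U2 particle (0.73 and −0.49), Zranb2, a zinc finger splicing factor (0.84 and −0.76), and Ints7, a subunit of the Integrator complex that trims small nuclear RNAs (0.82 and −0.83). Med9, a subunit of the Mediator complex, rose by 0.74 over sham and Tbl1x, a subunit of a nuclear corepressor complex, by 0.70. Diablo, a mitochondrial activator of apoptosis, rose by 0.85, Pdrg1, a prefoldin-like protein, by 0.82, and Gorasp1, a Golgi stacking protein, by 0.64. For each of these 9 genes, sham was called below naive under the median and TBI was not called different from naive. Under the 75th percentile the sham-minus-naive call remained for Zranb2, Ints7, Med9, Tbl1x, Pdrg1 and Gorasp1 (adjusted p 0.0364 to 0.048) and was lost for Lsm8, Sf3a2 and Diablo (0.0748 to 0.146). Of the other called genes, Rhbdd1, a rhomboid protease, rose over sham by 1.16, Tpm3, a tropomyosin, by 0.77 although the lowest of its 7 probes gave −0.08, Ltv1, a ribosome assembly factor, by 0.76, Lmnb2, a nuclear lamin, by 0.72, Syngr1, a synaptic vesicle protein, by 0.69 and Zfp703, a zinc finger protein, by 0.56. Each had sham called below naive under the median, a call that none of these 6 kept under the 75th percentile (adjusted p 0.0691 to 0.148).

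A smaller set was above both controls. Lyn, a Src family kinase of microglia and other myeloid cells, had levels of 3.58 to 3.85 in naive, 3.35, 3.74, 3.14 and 3.95 in sham and 4.96, 4.56, 4.42 and 4.85 in TBI, with no overlap. Lyn rose by 1.15 ± 0.18 over sham (adjusted p = 0.0406) and by 0.95 over naive (adjusted p = 0.00927). Ppp1r18, an actin-binding phosphatase subunit, rose by 1.42 over sham and 1.01 over naive, although its other probe gave 0.74. Tnfsf9, the ligand of the costimulatory receptor 4-1BB, rose by 1.55 and 1.45, with 3 of 4 arrays above background in each control group. Cldn23, a claudin of tight junctions, had levels of −0.69, −0.38, −0.41 and −0.50 in sham and 0.71, 0.64, 0.55 and 1.64 in TBI, and rose by 1.38 over sham and 1.46 over naive, where 3 of 4 arrays were above background. It was the called gene for which sham lay at the naive level or above (sham minus naive 0.08, adjusted p = 0.805).

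Smaller rises over both controls were found for Pa2g4, a ribosome-associated growth regulator (0.87 over sham and 0.54 over naive), Polr3g, a subunit of RNA polymerase III (0.86 and 0.62), Gusb, the lysosomal beta-glucuronidase (0.63 and 0.58), and Arpc5, a subunit of the actin-nucleating Arp2/3 complex (0.62 and 0.43). Gusb is often used as a reference gene. None of these calls against sham held under the 75th percentile (adjusted p 0.161 to 0.183), where all 8 genes, Lyn, Ppp1r18, Tnfsf9, Cldn23, Pa2g4, Polr3g, Gusb and Arpc5, kept the call against naive (0.00886 to 0.0299).

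For dim genes only a bound can be given. Trip13, an ATPase of the mitotic checkpoint, was not well above background in any naive or sham array and was above it in all 4 TBI arrays, at least 1.28-fold higher than sham (adjusted p = 0.038) and at least 1.59-fold higher than naive. Tapbpl, a peptide editor of MHC class I, was not well above background in sham and was at least 5.26-fold higher in TBI (adjusted p = 0.0406). Tapbpl was above background in 3 of 4 naive arrays, at 1.48, 1.35 and 1.20 beside 1.80, 1.50, 1.25 and 1.47 in TBI, so that sham and naive replicate 2 (−2.58) were the arrays that stood apart. For Comp, Ly6i and Cnnm4, which were called, the bound lay under 1 and no fold is given.

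Reactive astrocyte genes were higher in TBI than in sham, on top of a rise in sham itself. Of 28 tested genes of the list, 14 were higher and 0 lower past the thresholds under both scalings, with a median difference of 1.26 (1.12 under the 75th percentile) beside 0.14 over all genes. Against naive, 19 were called higher in TBI and 9 in sham, and 0 lower in either. The mean level of the list above naive was 0.41, 2.00, 0.53 and 1.72 in sham replicates 1 to 4 and 2.87, 2.06, 1.87 and 2.95 in TBI. Sham replicates 2 and 4 thus stood near TBI replicates 2 and 3, and sham replicates 1 and 3 near naive. Under the 75th percentile the counts above naive were 19 for TBI and 5 for sham.

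Serpina3n, a secreted protease inhibitor and a common reactive astrocyte marker, showed the widest range of any gene named here. Its levels were −2.77, −3.55, −2.26 and −3.72 in naive, where no array was well above background, 1.81, 5.11, 1.32 and 4.80 in sham and 6.65, 7.42, 7.25 and 7.01 in TBI. The 3 groups did not overlap, and sham replicates 2 and 4 stood well above sham replicates 1 and 3. Serpina3n was 3.82 ± 0.75 higher in TBI than in sham (adjusted p = 0.0567, and 0.161 under the 75th percentile), which missed the call. It rose in TBI over naive at least 310.2-fold (adjusted p = 0.000305) and was called higher in sham than naive (adjusted p = 0.00608, and 0.0168 under the 75th percentile). Serpina3n belongs to a gene family whose copies can share probe sequence.

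Lcn2, a siderophore-binding protein of reactive astrocytes and neutrophils, had levels of 0.60 to 1.45 in naive, 4.49, 7.34, 2.54 and 6.69 in sham and 8.70, 8.23, 7.52 and 9.41 in TBI. TBI lay above every sham array under the median, by 3.20 ± 0.84 on average (adjusted p = 0.0829), and Lcn2 rose by 7.38 over naive in TBI (adjusted p = 0.00609) and by 4.18 in sham (adjusted p = 0.00962). Timp1, an inhibitor of matrix metalloproteinases, had levels of 3.12 to 3.31 in naive, 4.45, 8.75, 5.18 and 7.16 in sham and 8.77, 7.83, 7.37 and 8.17 in TBI. Sham replicate 2 reached the level of the highest TBI array, and the difference of 1.65 ± 0.72 was not called (adjusted p = 0.22), while both TBI (4.83) and sham (3.18) were called above naive. Gfap, the astrocyte intermediate filament, overlapped between sham (6.34, 7.29, 7.44 and 8.15) and TBI (8.71, 8.33, 7.45 and 8.50), with a difference of 0.94 (adjusted p = 0.326), and rose over naive by 2.89 in TBI (adjusted p = 0.00836) and 1.95 in sham (adjusted p = 0.0226, and 0.0555 under the 75th percentile). Vim, another intermediate filament, and Cd44, a hyaluronan receptor, rose over naive in TBI by 2.08 and 3.69, and were 0.97 and 1.88 above sham (adjusted p = 0.123 and 0.12).

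**Figure D3:**
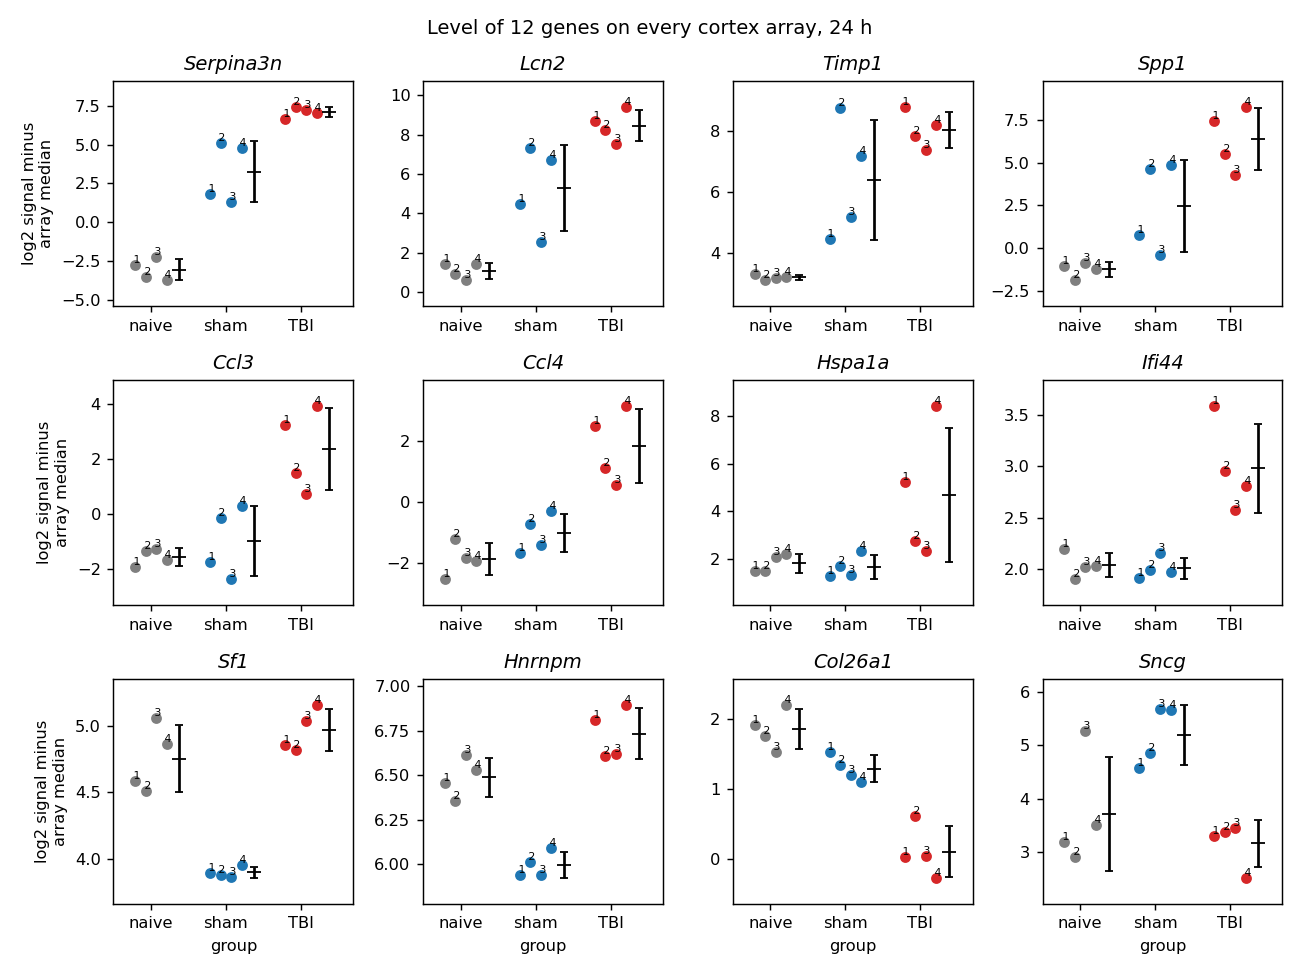
Levels of 12 genes (log2 signal minus array median, y axis, with a scale of its own in each panel) on the 4 naive, 4 sham and 4 TBI arrays, labelled by replicate number, with mean and SD (bars). Serpina3n separates the 3 groups, Timp1 in sham replicate 2 (8.75) reaches the TBI levels, Ifi44 is alike in naive and sham, Sf1 and Hnrnpm are low in sham only, and Col26a1 and Sncg are lower in TBI than in sham.

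Several chemokines and cytokines were higher in TBI. Of 26 CC and CXC chemokines on the array 21 were tested, of which 6 were higher and 1 lower under both scalings (median 1.09, or 0.95 under the 75th percentile), and 11 were called higher and 3 lower in TBI than in naive. That median lay 0.97 above the median of all tested probes, and −0.02 from it when a probe had to be above background on every sham and TBI array, so it rested on members that were dim on some of these arrays. The list mean above naive was −0.16, 1.20, 0.20 and 1.17 in sham replicates 1 to 4 and 2.44, 1.42, 0.98 and 2.08 in TBI. Ccl4, a chemokine that attracts monocytes and T cells, had levels of −1.68, −0.72, −1.42 and −0.32 in sham, where 2 of 4 arrays were above background, and 2.48, 1.11, 0.53 and 3.14 in TBI. The groups did not overlap, and the difference of 2.85 ± 0.52 just missed the call (adjusted p = 0.0506, and 0.161 under the 75th percentile). Ccl3, a macrophage inflammatory protein, was 3.33 ± 0.70 higher (adjusted p = 0.0623), from −1.73, −0.13, −2.36 and 0.29 in sham, where 2 of 4 arrays were above background, to 3.24, 1.50, 0.74 and 3.93. Both rose over naive under both scalings, Ccl3 at least 10.9-fold with 1 of 4 naive arrays above background, and Ccl4 at least 8.01-fold with none.

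Ccl5, a chemokine of T cells and monocytes, was steadier in TBI (2.51, 2.96, 2.60 and 2.55) than in sham (0.70, 2.00, 1.11 and 1.65) and 1.29 ± 0.25 higher (adjusted p = 0.0562). Ccl2, the main monocyte attractant, was widely spread in both groups, with −0.90, 2.34, −0.41 and 3.37 in sham and 6.50, 2.66, 1.82 and 7.19 in TBI. The Ccl2 groups overlapped, 2 of 4 sham arrays were above background, and the difference of 3.44 ± 1.21 had an adjusted p of 0.138. The chemokine on the lower side was Cxcl12, which retains leukocytes and guides neurons and is made by resident cells.

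Among 30 tested cytokines and receptors, 13 were higher and 0 lower (median 0.85), and 14 were called higher in TBI than in naive. Their median lay 0.73 above that of all tested probes, and 0.39 above it in the lowest of the 18 processing settings tried. Tnf, a proinflammatory cytokine, had levels of 0.02, 0.16, 0.19 and 0.37 in sham, −0.14 to 0.68 in naive and 2.02, 1.18, 0.60 and 2.51 in TBI, a difference of 1.39 ± 0.34 from sham (adjusted p = 0.0778). The sham levels lay within the naive range (sham minus naive −0.03, adjusted p = 0.958). Il1b, the interleukin processed by the inflammasome, was spread from −1.70 to 1.58 in sham and from 0.37 to 3.84 in TBI (2.52 ± 0.84, adjusted p = 0.127), with 2 of 4 sham arrays above background. Only 1 of 4 naive arrays was, and Il1b rose over naive at least 10.7-fold (adjusted p = 0.0102). Lifr, the leukemia inhibitory factor receptor, was not well above background in sham or naive and was at least 1.18-fold higher in TBI than in sham (adjusted p = 0.0755). In the JAK-STAT list, which relays such cytokines, 6 of 19 genes were higher and 0 lower (median 0.40). They included Stat3, the factor itself (1.37), Pim1, a kinase it induces (1.09), and Socs3, its feedback inhibitor (2.25), which rose over naive by 1.53, 1.17 and 3.71. Pim1 was above background in 1 of 4 sham and 2 of 4 naive arrays, so its differences rest on dim signals. Of 17 Toll-like receptor genes 8 were higher and 0 lower, with Cd14, the coreceptor for lipopolysaccharide, at 2.15 and Irak2, an adaptor kinase, at 0.67.

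Microglia and macrophage genes split by direction. Of 28 tested genes, 15 were higher and 3 lower in TBI than sham under both scalings (median 0.87), and against naive 16 were called higher and 4 lower. The 3 lower genes were P2ry12 and P2ry13, purinergic receptors of resting microglia, and Tmem119, a surface marker of resident microglia. P2ry12 had levels of 5.18, 5.23, 5.38 and 4.70 in sham and 4.17, 4.30, 5.18 and 3.36 in TBI, a difference of −0.87 (adjusted p = 0.136), and it fell from naive (adjusted p = 0.0129), with a TBI-minus-naive difference of −1.36 under the 75th percentile (adjusted p = 0.0165). Tmem119 fell from naive by 1.05 (TBI minus naive −1.05, adjusted p = 0.0242) and differed by −0.71 from sham (adjusted p = 0.165). For both, TBI replicate 3 lay among the sham levels and TBI replicate 4 was the lowest.

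On the higher side, Cd68, a lysosomal protein of phagocytes, had levels of 1.08, 2.53, 1.03 and 2.19 in sham and 3.60, 2.71, 2.17 and 3.79 in TBI and rose over naive by 2.03 (adjusted p = 0.00957). Itgam, the CD11b integrin, rose over naive by 2.42 and Tyrobp, the adaptor of TREM2, by 1.49. Against sham these 3 differed by 1.36, 1.56 and 1.14 with adjusted p of 0.0955, 0.113 and 0.0883. Irf8, a transcription factor of the myeloid lineage, was 1.20 ± 0.27 above sham (adjusted p = 0.07), with −0.81, −0.21, −0.63 and 0.23 in sham and 1.20, 0.70, 0.42 and 1.07 in TBI. C3ar1, the receptor of the complement fragment C3a, was 1.42 above sham with no overlap (adjusted p = 0.0773).

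Of 18 damage-associated microglia genes, a state described for phagocytic microglia, 10 were higher and 0 lower (median 0.88). Gpnmb, a lysosomal glycoprotein, had levels of 2.69 to 3.48 in naive, 3.26, 5.24, 3.49 and 5.53 in sham and 6.93, 6.19, 5.86 and 7.41 in TBI, a difference of 2.22 ± 0.50 (adjusted p = 0.07). Spp1, osteopontin, spanned more than any other gene of the list, from −0.39 to 4.86 in sham (0.79, 4.61, −0.39 and 4.86) to 7.41, 5.48, 4.30 and 8.23 in TBI. TBI replicate 3 lay below sham replicates 2 and 4, and the difference of 3.89 ± 1.15 had an adjusted p of 0.0995, while TBI rose over naive at least 157-fold (adjusted p = 0.00743). Spp1 was above background in 1 of 4 naive and 3 of 4 sham arrays. Lgals3, a galectin of phagocytes, rose over naive by 4.57 in TBI and 2.25 in sham (adjusted p = 0.00743 and 0.0319, the latter 0.0719 under the 75th percentile).

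Genes of blood leukocytes were higher too. Of 18 neutrophil genes on the array 9 were tested, of which 6 were higher and 0 lower (median 1.86) and 8 were called above naive in TBI. Sham against naive could be tested for 7, with 2 called higher. The list median lay 1.74 above that of all tested probes, and 1.47 above it when a probe had to be above background on every sham and TBI array. In the lowest of the 18 processing settings tried it lay 0.88 above it. The log2 of the summed signals of the 4 neutrophil markers on the array was 2.26 to 3.01 in naive, 2.58 to 5.52 in sham and 3.84 to 7.38 in TBI. Only 2 of these 4 markers were above background on all 12 arrays. Other summed markers below were formed in the same way. S100a9, a calcium-binding protein abundant in neutrophils, had levels of 1.84, 3.89, 1.79 and 4.95 in sham and 6.89, 5.66, 3.26 and 6.71 in TBI. TBI replicate 3 lay below sham replicates 2 and 4, and the difference of 2.51 had an adjusted p of 0.123, while S100a9 rose over naive in TBI by 3.85 (adjusted p = 0.0128). Leukocyte extravasation genes were higher in 13 of 22 and lower in 0 (median 1.26), with Ncf1, a subunit of the phagocyte oxidase, at 1.25 ± 0.27 (adjusted p = 0.0638). Their median lay 1.14 above that of all tested probes, and 0.51 above it in the lowest of the 18 settings.

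Of 28 T cell and NK cell genes on the array 18 were tested, with 5 higher and 0 lower (median 0.69). Their median lay 0.57 above that of all tested probes, 0.17 above it under that stricter filter and 0.06 above it in the lowest of the 18 settings. The summed T cell markers were 1.88 to 2.19 in sham and 2.23 to 2.94 in TBI. Only 2 of the 5 T cell markers were above background on all 12 arrays, and neither of 2 B cell markers was. MHC class I genes, which present peptides to T cells, were higher in 8 of 18 (median 0.71) and class II genes in 5 of 10 (median 1.09), with 0 lower in either. RT1-CE16, a class I heavy chain, was 1.02 ± 0.21 above sham (adjusted p = 0.0611), but the copies of this family can cross-hybridise. Complement genes were higher in 7 of 22 (median 0.39).

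Interferon response genes tended to be higher in TBI than in both controls, although sham replicate 2 lay above TBI replicate 3 in the list mean. Of 35 tested, 13 were higher and 0 lower (median 0.68, or 0.54 under the 75th percentile), 18 were called above naive in TBI and 1 above and 2 below in sham. The list mean above naive was −0.31, 0.62, 0.10 and 0.23 in sham and 1.51, 0.91, 0.51 and 0.65 in TBI. TBI replicate 1 was the highest here, and TBI replicate 4, the highest for S100a8, Spp1 and Hspa1a, was not. Ifi44, an interferon-induced protein, had levels of 1.91 to 2.20 in naive, 1.91, 1.99, 2.16 and 1.97 in sham and 3.59, 2.96, 2.57 and 2.81 in TBI. Its difference of 0.97 ± 0.18 just missed the call (adjusted p = 0.0518), and it rose over naive by 0.94 (adjusted p = 0.00963). Irf9, the DNA-binding subunit of the ISGF3 factor, was 1.14 ± 0.25 above sham (adjusted p = 0.07) and Oasl, of the oligoadenylate synthetase family, at least 1.77-fold (adjusted p = 0.0558). Irf7, the amplifier of type I interferon, was at 4.35, 4.42, 2.79 and 2.47 in TBI against 0.96 to 2.42 in sham (1.76, adjusted p = 0.0778) and 1.07 above naive (adjusted p = 0.105).

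Heat shock and stress genes were higher in TBI, with a wide spread among the TBI rats. Of 20 heat shock genes 8 were higher and 0 lower (median 0.35), while the list mean above naive was −0.01, 0.10, −0.14 and 0.11 in sham and 0.67, 0.50, 0.28 and 1.21 in TBI. Hspa1a, the inducible HSP70, had levels of 1.49 to 2.22 in naive, 1.27, 1.72, 1.31 and 2.36 in sham and 5.22, 2.75, 2.35 and 8.44 in TBI. TBI replicates 1 and 4 were far above all other arrays, TBI replicates 2 and 3 were close to sham, and neither the difference from sham of 3.03 ± 1.02 (adjusted p = 0.127) nor that from naive of 2.87 (adjusted p = 0.07) was called. Hspb1, the small heat shock protein HSP27 of astrocytes, was instead high in sham replicates 2 (8.42) and 4 (7.42) as well as in TBI (8.95, 7.89, 7.45 and 8.98), with 4.77 and 4.27 in the other sham rats and 3.52 to 4.12 in naive. It rose over naive by 4.43 in TBI (adjusted p = 0.00817) and by 2.33 in sham (adjusted p = 0.0489, and 0.0926 under the 75th percentile), and was 2.10 above sham (adjusted p = 0.153). Hspd1, the mitochondrial chaperonin HSP60, was 0.68 ± 0.14 above sham with no overlap (adjusted p = 0.0611), and its 3 probes ranged from 0.21 to 0.68.

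Of 17 heme and oxidative stress genes 3 were higher and 0 lower (median 0.41). Hmox1, heme oxygenase 1, had levels of 2.35, 3.05, 1.83 and 4.23 in sham and 6.68, 4.08, 3.37 and 7.90 in TBI (2.64 ± 0.85, adjusted p = 0.117) and rose over naive by 3.22 (adjusted p = 0.0255). Maff, a small Maf factor that pairs with NRF2, was 2.42 ± 0.59 above sham without overlap (adjusted p = 0.0773). In the unfolded protein response 3 of 19 genes were higher (median 0.44), among them Sdf2l1, an endoplasmic reticulum cochaperone, at 0.72 ± 0.16 (adjusted p = 0.07). Of 21 hypoxia genes, 0 were past the thresholds under both scalings in either direction (median 0.15), and of 24 immediate early genes 1 was (median 0.12), near the 0.14 of all genes.

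Proliferation genes were higher in 16 of 27, with 0 lower (median 0.91). Against naive 15 were called higher in TBI and 0 in sham. The list mean above naive was −0.27, 0.60, 0.02 and 1.00 in sham and 1.89, 1.26, 0.72 and 1.64 in TBI. Mki67, a marker of cycling cells, had levels of −1.95, 1.11, −0.47 and 1.76 in sham and 2.78, 1.95, 1.12 and 2.34 in TBI, and rose over naive at least 8.28-fold (adjusted p = 0.0125), with 2 of 4 sham arrays and 1 of 4 naive arrays above background. Plk1, a mitotic kinase, had levels of −0.08, 0.51, 0.27 and 0.77 in sham and 1.84, 1.13, 0.99 and 1.83 in TBI (1.08 ± 0.22, adjusted p = 0.062), but naive was at 0.70 to 0.90 and the difference from naive of 0.67 was not called (adjusted p = 0.0569). Cdkn1a, the p53 target p21, was 1.11 above sham (adjusted p = 0.113), in a cell death and p53 list with 6 of 22 higher and 0 lower (median 0.57).

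**Figure D4:**
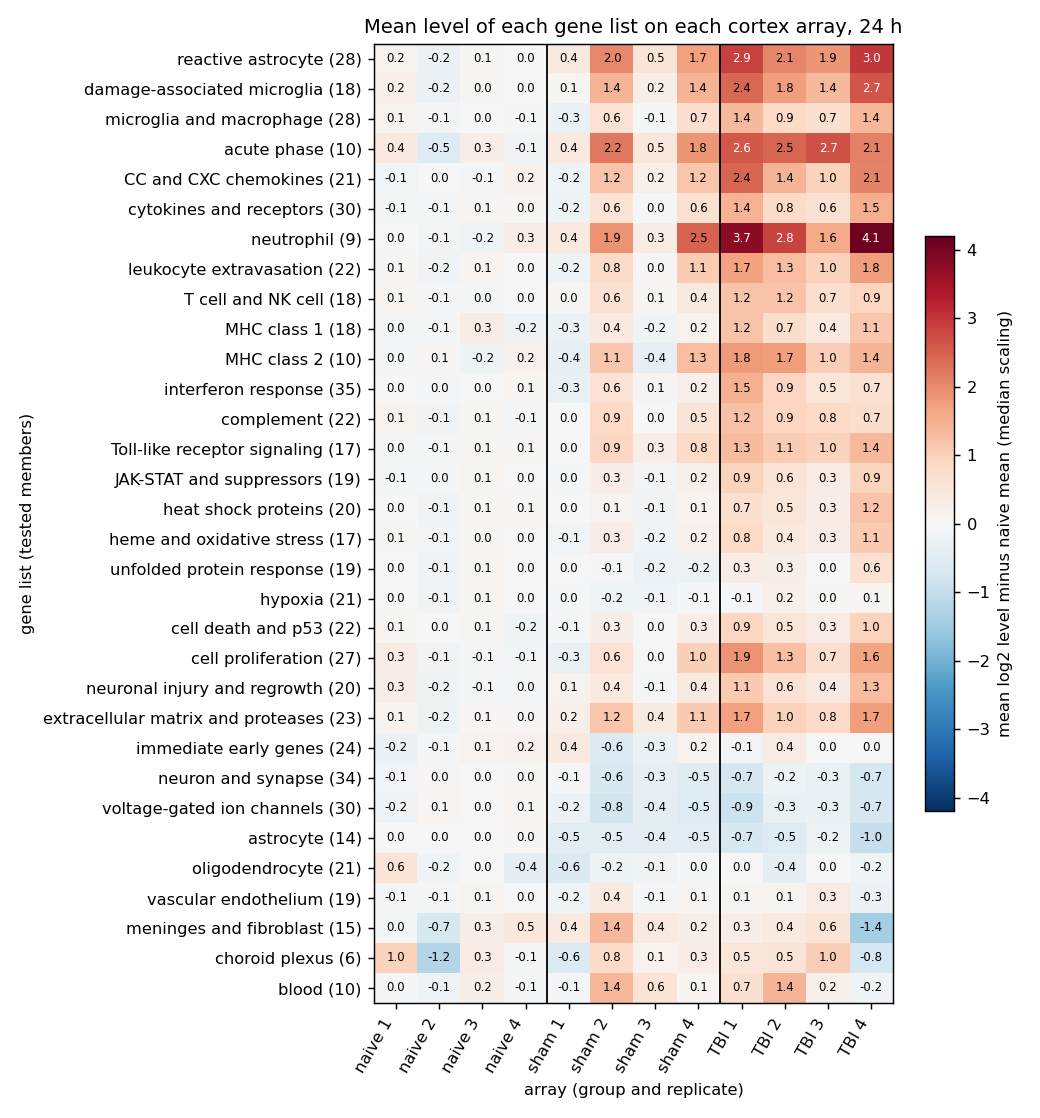
Mean level of the tested members of each gene list (rows, with their number) on each of the 12 arrays (columns), as log2 difference from the naive mean under the median scaling, in colour and in digits. Inflammatory lists are high on all 4 TBI arrays and, to a lesser degree, in sham replicates 2 and 4, while neuron and ion channel lists are below naive in both sham and TBI.

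Neuronal genes were below naive in TBI, and few differed between TBI and sham. Of 34 neuron and synapse genes, 0 were higher and 1 lower in TBI than in sham (median −0.04, or −0.18 under the 75th percentile), while 13 were called below naive in TBI and 16 in sham (11 and 2 under the 75th percentile). Of 30 voltage-gated ion channel genes, 0 were past the thresholds under both scalings in either direction (median −0.09), while 12 were called below naive in TBI and 11 in sham (12 and 0). The neuron list mean relative to naive was −0.09, −0.64, −0.34 and −0.51 in sham and −0.71, −0.21, −0.28 and −0.73 in TBI, so the groups overlapped. With 19.5% of all genes called lower in sham than naive under this scaling and 10.3% in TBI, these counts are to be read against those shares. The astrocyte list, of markers of resting cells, had 0 higher and 1 lower of 14 (median −0.09) with 6 called below naive in TBI and 5 in sham (5 and 0). Most lower calls in sham were lost under the 75th percentile, and this was not particular to these lists. Over all genes, the lower calls went from 2151 to 125 of 11037 in sham and from 1212 to 1000 of 11728 in TBI. Aldh1l1, a folate enzyme used as an astrocyte marker, fell from naive by 1.30 in TBI (TBI minus naive −1.30, adjusted p = 0.00743) and by 0.84 in sham (sham minus naive −0.84, adjusted p = 0.0106, and 0.0576 under the 75th percentile).

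Of the lower genes, Col26a1 was the called one. Col26a1, a collagen of the extracellular matrix, had levels of 1.92, 1.76, 1.53 and 2.21 in naive, 1.53, 1.34, 1.19 and 1.09 in sham and 0.03, 0.61, 0.04 and −0.27 in TBI. All TBI arrays lay below all others, and Col26a1 fell by 1.19 ± 0.19 from sham (TBI minus sham −1.19, adjusted p = 0.0406, and −1.33 with 0.102 under the 75th percentile) and by 1.75 from naive (TBI minus naive −1.75, adjusted p = 0.00609). Sncg, gamma-synuclein, was lower in TBI (3.30, 3.38, 3.45 and 2.52) than in sham (4.57, 4.86, 5.68 and 5.67) by 2.03 ± 0.46 (adjusted p = 0.07), but TBI was near naive (3.19, 2.90, 5.27 and 3.50) and sham was called above naive by 1.48 (adjusted p = 0.04, and 0.0669 under the 75th percentile).

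Cited4, a coactivator that binds CBP/p300, was at 2.37, 1.22, 2.04 and 1.57 in sham and 0.55, 1.15, 0.61 and 0.17 in TBI (−1.18, adjusted p = 0.07) and fell from naive by 1.08 (TBI minus naive −1.08, adjusted p = 0.0199). Tspan18, an endothelial tetraspanin, had 3.92, 3.29, 3.40 and 3.07 in sham and 2.31, 2.99, 2.62 and 1.74 in TBI (adjusted p = 0.0834) and fell from naive by 1.50 (−1.50, adjusted p = 0.00817). Timp4, a metalloproteinase inhibitor of the brain, was lower by 0.77 (TBI minus sham −0.77, adjusted p = 0.0869) and fell from naive by 1.15 (−1.15, adjusted p = 0.00836), opposite in direction to Timp1. Cartpt, a neuropeptide, was low in sham replicates 2 (0.50) and 4 (1.12) as well as in TBI (0.86, 0.09, −0.05 and 0.75), against 3.57 to 3.99 in naive. Cartpt fell from naive by 3.38 in TBI (TBI minus naive −3.38, adjusted p = 0.00743) and by 1.93 in sham (sham minus naive −1.93, adjusted p = 0.023, and 0.0775 under the 75th percentile).

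Further genes with no overlap of TBI and sham under both scalings were Tubb2b, a tubulin of growing neurites (0.83, adjusted p = 0.07), Olig2, a factor of the oligodendrocyte lineage (0.75, adjusted p = 0.0778), and Dtx3l, an interferon-linked ubiquitin ligase (2.85, adjusted p = 0.139). Dtx3l was at 1.23 and 1.29 in sham replicates 2 and 4, at −2.63 and −2.56 in the other sham rats and at 1.76 to 2.60 in TBI, and naive was split in the same way, with 2 of 4 arrays above background in each control group. Slfn4, of the Schlafen family, was at least 1.97-fold higher than sham, where no array was well above background (adjusted p = 0.123). On the lower side were Foxe1 (−1.53), Qrfpr (−1.06), Tsacc (−1.02) and Zfp483 (−0.94), with adjusted p of 0.0955 to 0.158. Zfp483 rose in sham over naive by 1.45 (adjusted p = 0.0105), with 2 of 4 naive arrays above background. In TBI, 2 of 4 arrays were above it for Foxe1 and 3 of 4 for Zfp483.

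Markers of tissue that a dissection can include varied from rat to rat. The summed level of the 4 meninges markers was 5.23 to 6.57 in naive, 6.13 to 7.16 in sham and 4.53 to 6.74 in TBI, and all 4 were above background on all 12 arrays. Of 15 meninges and fibroblast genes, 2 were lower and 0 higher (median −0.60), and the list mean relative to naive was 0.38, 1.37, 0.42 and 0.24 in sham and 0.28, 0.42, 0.55 and −1.42 in TBI, so TBI replicate 4 stood apart. Fmod, a fibrous proteoglycan, was at 3.06 in that rat and at 4.85, 4.88 and 4.99 in the other TBI rats (sham 5.10 to 6.29, adjusted p = 0.181). The summed choroid plexus markers spanned 1.70 to 6.76 in naive, 2.83 to 5.46 in sham and 3.05 to 6.74 in TBI, with Kl above background on no array. The summed erythrocyte markers overlapped between all groups, with the highest array at 12.2 in TBI. The part of dissection in the lower genes was not tested.

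Promoters are shown for 4 genes of the responses above. They include a heat shock gene that was also high in sham rats and a heat shock gene with no overlap of TBI and sham. The others are the reactive astrocyte gene with the widest range and an interferon response gene with no overlap of TBI and sham. A promoter was found for 9583 of the 11740 tested genes. Each is 300 bases of RefSeq sequence on the build GRCr8, from 250 bases before to 50 after the start, read 5′ to 3′ on the strand of the gene. Capitals mark the heat shock element GAANNTTC in Hspb1 (chr12:26432252-26432551, minus strand, at −129 and −109) and Hspd1 (chr9:64083988-64084287, minus strand, at −237), the gamma-activated site TTCNNNGAA in Serpina3n (chr6:129088142-129088441, plus strand, at −123), which is the site that STAT factors bind, and the interferon-stimulated response element GAAANNGAA, here on the other strand, in Ifi44 (chr2:243303791-243304090, minus strand, at −25 and 28).
Hspb1: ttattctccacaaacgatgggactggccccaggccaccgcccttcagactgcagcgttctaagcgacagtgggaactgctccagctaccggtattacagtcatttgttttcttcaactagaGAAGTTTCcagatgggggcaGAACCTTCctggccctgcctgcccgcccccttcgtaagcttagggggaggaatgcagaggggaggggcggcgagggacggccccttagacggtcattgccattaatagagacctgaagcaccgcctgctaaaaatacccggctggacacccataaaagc
Hspd1: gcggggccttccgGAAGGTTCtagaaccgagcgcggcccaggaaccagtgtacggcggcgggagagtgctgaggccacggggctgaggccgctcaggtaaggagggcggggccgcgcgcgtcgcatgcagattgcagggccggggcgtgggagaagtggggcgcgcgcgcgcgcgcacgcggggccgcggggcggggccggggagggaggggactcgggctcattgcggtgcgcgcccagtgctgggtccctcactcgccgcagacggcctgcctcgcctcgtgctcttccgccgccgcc
Serpina3n: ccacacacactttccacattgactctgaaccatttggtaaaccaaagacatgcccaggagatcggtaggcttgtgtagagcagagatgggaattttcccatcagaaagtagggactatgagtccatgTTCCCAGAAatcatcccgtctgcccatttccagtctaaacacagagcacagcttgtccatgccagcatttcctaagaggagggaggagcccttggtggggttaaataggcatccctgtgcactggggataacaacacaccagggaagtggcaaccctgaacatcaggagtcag
Ifi44: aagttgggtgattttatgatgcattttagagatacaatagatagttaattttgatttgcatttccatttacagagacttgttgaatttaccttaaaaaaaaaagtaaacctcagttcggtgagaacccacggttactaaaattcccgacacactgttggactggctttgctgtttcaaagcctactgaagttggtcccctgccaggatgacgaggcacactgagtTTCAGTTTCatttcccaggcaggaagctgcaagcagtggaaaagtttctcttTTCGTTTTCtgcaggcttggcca

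These matches are letters in a window and no measure of binding. All 4 genes shown hold their element, but other genes named above do not. Hspa1a had 0 matches of the heat shock element, Lcn2, Socs3 and Stat3 had 0 of the gamma-activated site, and Oasl had 0 of the interferon-stimulated response element. Searched on both strands, GAANNTTC was in 8.34% of all 27457 promoters and 5.57% of those of tested genes, in 9 of the 17 heat shock genes with a promoter in the table (52.9%) and in 7.4% of the 500 promoters found for the 643 higher genes. GAAANNGAA was in 9.5% of all promoters and 7.09% of those of tested genes, in 20 of 26 interferon response genes (76.9%) and in 10.4% of the higher genes. TTCNNNGAA was in 8.68% of all promoters, 6.77% of those of tested genes and 7.2% of the higher genes. By list, TTCNNNGAA was in 1 of 8 acute phase genes with a promoter (12.5%), 2 of 14 JAK-STAT genes (14.3%) and 10 of 26 interferon response genes (38.5%). For all promoters, tested genes and higher genes, the AP-1 site TGANTCA was in 7.33%, 5.24% and 10.2%. The hypoxia core ACGTG or GCGTG was in 42.9%, 60% and 52.8%, and the antioxidant core TGACNNNGC in 12.2%, 14.3% and 14.2%. Among the 26 called genes with a promoter in the table the shares were 7.69% for the heat shock element, 0% for the interferon element, 3.85% for the gamma-activated site, 7.69% for AP-1, 65.4% for the hypoxia core and 23.1% for the antioxidant core. None of the printed matches overlapped another motif.

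The cortical response was set against that of the hippocampus at the same interval by an interaction test, the TBI-minus-sham difference in cortex minus that in hippocampus (3 TBI and 2 sham arrays). The hippocampal arrays are of another design and of other slides and days, so that region cannot be told apart from these. Within hippocampus, the sham and TBI arrays were on different slides scanned on different days, whereas the cortex slides were scanned the same day. The hippocampal TBI-minus-sham difference can therefore not be told apart from slide and day. The methods describe both regions as taken from the rats of an interval, the labels do not say whether these arrays share rats, and the test treats them as separate rats. Over 13246 probes present on both designs, 484 differed (3.65%), 447 of them with a larger value in cortex, and 311 (266 larger) under the 75th percentile. A larger value is meant with its sign, which a fall in hippocampus also gives, so these counts do not rank the regions by size of response. In the same fit, 1680 of these probes were called for the hippocampal TBI-minus-sham difference itself, and 1808 under the 75th percentile. Col26a1, which fell in cortex, was 1.18 higher in hippocampal TBI than sham, a difference of −2.37 ± 0.35 (SE, adjusted p = 0.00166). Cited4 was likewise 0.79 higher in hippocampus (difference −1.96, adjusted p = 0.0144). Bclaf1, a factor of RNA processing and apoptosis that was called in cortex (0.88, with 1 of 4 sham arrays above background), was −0.84 in hippocampus (difference 1.72, adjusted p = 0.000868).

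Of the called genes that were low in cortical sham, Lsm8 (difference 1.05, adjusted p = 0.00332), Zranb2 (0.94, 0.032) and Ints7 (0.79, 0.0381) also differed from hippocampus, where TBI minus sham was −0.24, −0.10 and 0.03. The same held for Tbl1x (1.17, adjusted p = 0.00741) and Pdrg1 (0.84, adjusted p = 0.0134). The calls for Lsm8 and Tbl1x held under the 75th percentile (adjusted p = 0.0101 and 0.0272) and those for Zranb2, Ints7 and Pdrg1 did not (0.073 to 0.122).

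Against cortex at 2 weeks on the same array design, the interaction with all arrays gave 0 called of 25952 probes by limma (758 at an unadjusted p under 0.05) under the median and 6 under the 75th percentile. In sham replicate 3 of the 2-week set 93% of probes were above background, against 42.2 to 65.1% on the other cortex arrays of that interval. Without it 8 probes were called (0.0308%), 2 larger and 6 smaller at 24 hours, and 65 under the 75th percentile. Trip13 and Tph1, the latter the first enzyme of serotonin synthesis outside neurons, were the named genes among them. Their TBI-minus-sham differences were larger at 24 hours by 3.26 ± 0.54 (adjusted p = 0.0181, and 0.0351 under the 75th percentile) and by 3.82 ± 0.69 (adjusted p = 0.0283, and 0.0598). At 24 hours Tph1 was not well above background in sham and at least 1.71-fold higher in TBI (adjusted p = 0.0567). Neither gene was well above background in 24-hour sham, so the sizes of these differences rest on dim signals.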

How the data were processed

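RNA of 12 cortex samples (4 naive, 4 sham, 4 TBI) was measured on Agilent 1-colour arrays with 45598 probes. The authors deposited scanner output (Agilent Feature Extraction 11.5.1.1) whose processed signal is an intensity already background-subtracted, together with flags for probes well above background. They also deposited a table of processed intensities, which are not in log2. That table was scaled to the 75th percentile of each array (the constant lay at percentile 74.9 to 75.0), although the methods name the median. Depth does not apply to arrays; precision is set by 4 arrays per group.

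Control spots and outlier spots were left out, spots of a probe averaged, log2 taken, and the array median (main) or 75th percentile subtracted. Limma 3.58.1 (R 4.3.3) was fitted to all 3 groups, with Benjamini-Hochberg adjustment over all tested probes; called means an adjusted p under 0.05. Two-sided exact permutation tests were used for single values. The script was tested on simulated data. Normexp, an alternative, used the deposited median signal and median background, offset 50, since a mean signal column was not used here.

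Probes were named by accession through the RefSeq gene table (GRCr8): 21109 of 45598 probes, and 14978 of 25862 tested. A gene is represented by its brightest tested probe; 2614 genes had more. Up to 15 genes called per direction were named, up to 10 per direction without overlap under both scalings, up to 3 of these per list, and the cell type markers; some of these genes are not reported here. Other called genes, members of a list and Spp1, Timp1, Lcn2, Gfap, Ccl2, Hspa1a, Hspb1, Hmox1, Il1b, Socs3, Cd14, Cartpt, Lgals3, Stat3, Vim, Cd44, Irf7, Mki67, Cxcl12 and P2ry13 were chosen after their values were seen. The members and gene lists were chosen with earlier results of these data known, so list counts are descriptions. Alternatives were quantile scaling, the authors' table, normexp, no filter, a stricter filter, a replicate block, only the 2 groups compared, each array left out and the median of bright probes; the last was chosen after seeing the data. The other 84 arrays of the series were not used here.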

Additional observations from a re-analysis of the deposited data

Results flagged for a closer look

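Among 228 groups of 4 arrays examined over the named genes, 13 held an array far from the other 3 by Dixon's ratio, where chance gives about 1 in 20. In TBI replicate 4 these were the levels of Cldn23 (1.64), Lifr (0.32), Srxn1 (8.11), Fmod (3.06), Sncg (2.52), Ptgds (8.61) and Igf2 (4.46), of which Fmod, Sncg, Ptgds and Igf2 were low and the others high. Fmod, Ptgds and Igf2 are genes of the meninges, whose summed markers were lowest in that rat (4.53), and the part of meningeal tissue in them was not tested. In naive replicate 2, Tapbpl (−2.58) was low, and in naive replicate 1 Cdkn2c (2.44) was high. Tph1 was at −1.99 in sham replicate 2, above the other sham arrays, and Tyms at −2.99 in sham replicate 3, below them. Bclaf1 was at −0.37 in TBI replicate 3 and LOC102547495 at −0.92 in TBI replicate 2, both below the other TBI arrays.

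Among the genes examined here, the TBI effect differed between cortex and hippocampus at 24 hours by the interaction test for Bclaf1 (1.72), Cited4 (−1.96) and Col26a1 (−2.37). Lsm8, Tbl1x, Pdrg1, Zranb2 and Ints7, described above, were outside this search. Array design, slide and day cannot be told apart from region, nor slide and day from injury in hippocampus. In cortex, the TBI effect differed between 24 hours and 2 weeks, with the 2-week sham replicate 3 left out, for Tph1 (3.82) and Trip13 (3.26).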

How the results depend on the processing

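The 56 probes called in TBI against sham became 1 under the 75th percentile, quantile scaling, the authors' table or the median of bright probes (the last chosen after seeing the data), 4 with only the 2 groups compared, 96 with probes above background on every array, 4330 with normexp and 9651 with no filter, where 8012 were lower in TBI. With no filter 13356 probes passed the study's fold and p thresholds, 10776 of them lower. Leaving out each array gave 0 (without sham replicate 4) to 1175 called probes (without TBI replicate 3) under the median and 0 to 4 under the 75th percentile; without sham replicates 1, 2 and 3 there were 4, 8 and 3, and without TBI replicates 1, 2 and 4 there were 2 each. The cause was not tested. Genes past the thresholds under both scalings ranged over 388 to 912 higher and 56 to 257 lower when each array was left out, and the study's thresholds over 2025 to 3710 probes. TBI against naive ranged over 1533 to 6995 called probes. Sham against naive gave 417 under the 75th percentile, 404 by quantile, 436 in the authors' table, 927 with no filter, 340 by the median of bright probes and 2052 to 3678 with each array left out. The hippocampus interaction gave 311 under the 75th percentile and 205 to 487 with each array left out. The 2-week interaction gave 6 under the 75th percentile, 0 to 22 with each array left out, and 65 without sham replicate 3 under the 75th percentile. The majority turned with the setting in some of these counts. For TBI against sham it was on the lower side with no filter and without sham replicate 1 (1 higher, 3 lower), and under the 75th percentile also without sham replicates 1, 2 and 3 and TBI replicate 2, with 1 to 4 probes called. For TBI against naive it turned from 1653 higher and 2878 lower to 2359 higher and 1315 lower with normexp. Among the 77 genes and markers checked, none changed sign in TBI against sham. The 16 called ones among them lost the call under the 75th percentile, quantile scaling, the authors' table, the median of bright probes and the replicate block. With only the 2 groups compared 14 lost it, and with normexp 4 did. Leaving out a single sham or TBI array removed 15 or 16 of the calls, except for TBI replicate 3, without which the calls were kept. The other called genes named in the text were not part of this check.

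The labels number replicates 1 to 4 in each group, but different rats carry the same number. Same-numbered arrays had deviations correlated from −0.299 to 0.345 (mean 0.0129), against −0.324 to 0.419 (mean −0.00504) for other pairs, so the numbers do not pair the rats. With the replicate number as a block 0 probes were called by limma, and 5199 had an unadjusted p under 0.05. Slide as a random block could not be fitted, since TBI has a slide of its own. Signal over background limits dim probes: folds are given as bounds where no array of a group was well above it, and differences rest on dim signals where only some were.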
